A study of Humulus lupulus with 6 samples.

Results

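In RNA-seq of 3 vegetative tissues of hop (Humulus lupulus), 1378 spliced loci had an assembled gene model in apical meristem and in stem and none in leaf. They were found among 67811 loci in all, a locus being the models of any tissue joined by an exonic overlap of 1 base or more in the same orientation. A spliced locus of this kind has a model of at least 2 exon blocks, that is stretches of exon after overlapping exons are merged, in meristem and another in stem. The members were thus chosen by the presence and absence of models, which depends on reads, so their number and their lack of a leaf model are descriptions and carry no test.

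The groups are apical meristem, actively growing stem and young leaf of the cultivar Cascade. All plants grew in a glasshouse and received only sprays against insects and fungi, so neither cultivar nor treatment separates the groups. The labels list 6 samples, 2 per tissue, while their protocol speaks of 3 TruSeq RNA libraries, each on a lane of its own. The files analysed hold 1 count column per tissue, and nothing says whether it is 1 sample or both. No error between plants can be had from them. The intervals of fold differences at single loci cover only the error of counting, with fragments taken as independent. Reads copied by PCR and lacking molecular tags are not independent, so these intervals may be too narrow even for counting. Counted fragments numbered 135877224 in meristem, 125454712 in stem and 162799212 in leaf. Models numbered 59990 in meristem, 57985 in stem and 51502 in leaf, so the most deeply counted tissue had the fewest.

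At the tip of a shoot, the apical meristem keeps dividing and gives rise to stem and leaves. A growing stem builds vascular and fibre tissue, and a leaf devotes much of its messenger RNA to photosynthesis. Splicing removes introns from a transcript, so a model with an intron rests on reads that join exons and not on reads from genomic DNA. The assembler needs such reads in the tissue itself, and a locus without a model has no count there, which is not a count of 0. Gene names are not paired with the numbers in the files, so loci are given by contig and position on the authors' Cascade assembly, no gene function can be stated, and the tissues could not be checked against marker genes. No sequence of that assembly was used here. In whole tissue, fewer cells of a type and less RNA per cell cannot be told apart.

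The members were low in both tissues. The median was 76 fragments in meristem and 75 in stem. On the CPM scale (counts scaled to a file total of 1000000, with no allowance for length) the median level was 0.559 in meristem (middle 50% of loci 0.213 to 1.32) and 0.598 in stem (0.255 to 1.47). Per kb of model, the median level was 1.15 CPM in meristem and 1.28 in stem, against 9.03 and 8.19 at the 22240 loci spliced in all 3 tissues. All members combined made up 0.151% of the meristem total and 0.184% of the stem total, while the loci spliced in all tissues took 87.7% and 87.3%. At least 1 CPM was reached by 438 members in meristem and 476 in stem, by 660 in either tissue and by 254 in both. At least 10 CPM was reached by 3 members in meristem and 20 in stem, 22 in all, and by 1 in both tissues.

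The 10 members with the highest mean CPM of both tissues were mostly higher in stem. On contig 000076F (459691–462287, minus strand, 2 exons in each tissue), 3480 fragments were counted in meristem and 2840 in stem, or 25.6 and 22.6 CPM. This was the member that passed 10 CPM in both tissues, and its levels differed 1.13-fold (counting interval 1.08 to 1.19). Per kb of model its levels were the same to 3 digits, 11.3 CPM in meristem and 11.3 in stem. A leaf model on the same strand surrounds it, running from 457750 to 519188 with 3 exons and 51126 fragments, and the whole locus lies in an intron of that model. Whether leaf reads at the locus were taken into the surrounding model was not tested.

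Next came a locus on contig 008593F (42513–45090, plus strand), with 143 fragments in meristem and 3767 in stem. It had 5 exons at most in a meristem model and 7 in stem, and its level of 1.05 CPM in meristem was 28.5-fold lower than the 30.0 CPM in stem (24.1 to 34.0). The locus on contig 010666F (22221–33592, minus strand) showed 103 meristem fragments and 3479 stem fragments, 36.6-fold fewer in meristem on the CPM scale (30.1 to 44.9). Its single intron of 9514 bases sat at the same position in both tissues, and the meristem model had 839 exonic bases, the stem model 1858. The difference was 16.5-fold when taken per base. On the other strand, 2 stem models with 5108 fragments overlap its exons, and no meristem model does. Whether reads from that strand entered the stem count of the locus was not tested. No leaf model was listed on the locus's own strand of that contig.

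The highest level in meristem was at a 3-exon locus on contig 003819F (243873–245543, minus strand), with 3481 fragments in meristem and 28 in stem. It was 115-fold higher in meristem (79.3 to 173), and 52.8-fold per base of model, where the meristem model covered 1085 bases and the 2 stem models 499. No intron of this locus sat at the same position in both tissues. Also higher in meristem was the locus on contig 001506F (354555–356853, plus strand, 8 exons in meristem and 6 in stem), with 3169 fragments in meristem and 274 in stem, a 10.7-fold difference (9.44 to 12.1). These were the members above 10 CPM that were at least 4-fold higher in meristem.

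Both tissues were within 2-fold at the locus on contig 000819F (467325–470719, minus strand), with 1206 fragments in meristem and 1896 in stem, and at that on 008167F (17068–21902, minus strand), with 1191 and 1674. The other 3 of the 10 were low in meristem. On contig 002942F (271495–272270, plus strand) 115 fragments were counted in meristem and 2651 in stem, and per kb of model this member had the highest stem level of the 10, at 39.4 CPM. On 004426F (263682–269350, plus strand) there were 132 in meristem and 2590 in stem. Its 12 stem exons lie in 1 model, while meristem had 4 separate models of up to 4 exons over the same stretch. On 001306F (224963–232330, minus strand) there were 543 fragments in meristem and 2117 in stem, 4.22-fold fewer in meristem (3.84 to 4.65), and all 6 introns agreed in position between both tissues.

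**Figure D1:**
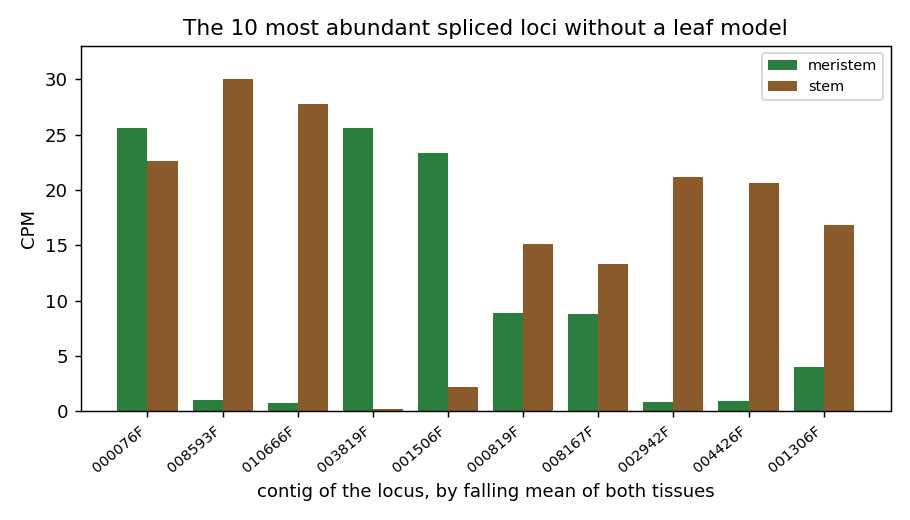
Levels of the 10 members with the highest mean CPM (linear axis from 0), in meristem (green) and stem (brown). Each bar is the 1 count column of its tissue and has no replicate error. Stem is the higher bar at 7 of the 10, and 000076F is the locus with both bars above 20.

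The order of meristem and stem varied widely among the members. The meristem over stem ratio of CPM could be formed at 1358 of them, the other 20 having at most 3 fragments in each tissue. Its log2 had a median of -0.30 (order-statistic interval -0.41 to -0.20, with loci taken as independent) and its middle 50% ran from -1.32 to 0.94. The level was higher in meristem at 585 members and higher in stem at 773. The median size of the log2 difference in either direction was 1.16, against 0.88 at loci spliced in all tissues, whose median log2 ratio was 0.08. The sizes are not matched by level. Median fragments in meristem and stem were 76 and 75 at members and 1883.5 and 1478 at those loci, and ratios of low counts scatter more. Across the members, levels in both tissues had a Spearman correlation of 0.47 and, as log2(CPM + 1), a Pearson correlation of 0.43. This describes 1378 loci from the same 2 count columns, and loci are not independent replicates.

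For a count of unequal loci, a member was called where the higher tissue had at least 1 CPM and the fold was at least 4. Of 660 members compared, 109 (16.5%) were called higher in meristem and 131 (19.8%) higher in stem, and 244 (37.0%) were within 2-fold. Over all 31567 loci with a meristem and a stem model at that level, 13.8% were called higher in meristem and 10.5% higher in stem. Over the 22730 of these spliced in both tissues the shares were 12.0% and 7.54%, with 54.3% within 2-fold. The members' share higher in stem was above that of all loci. Their share higher in meristem was above it at this level, and below it when fragments were taken per base of model, at 9.24% of members and 11.4% of all loci, or with no minimum level, at 11.6% and 13.1%. No test of these differences was made, because there is 1 column per tissue and loci are not replicates.

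Of the 22 members with at least 10 CPM in the higher tissue, 2 were at least 4-fold higher in meristem and 14 at least 4-fold higher in stem, while among all 17384 loci at that level the shares were 13.6% and 9.18%. As 20 of the 22 passed this level in stem and 3 in meristem, with 1 in both, the level itself favours calls for stem, and nothing is read from these counts. Members below 10 CPM still had more calls for stem, at 107 higher in meristem and 117 higher in stem of 638. The backgrounds in that range, over spliced loci, were 12.0% and 7.68%.

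**Figure D2:**
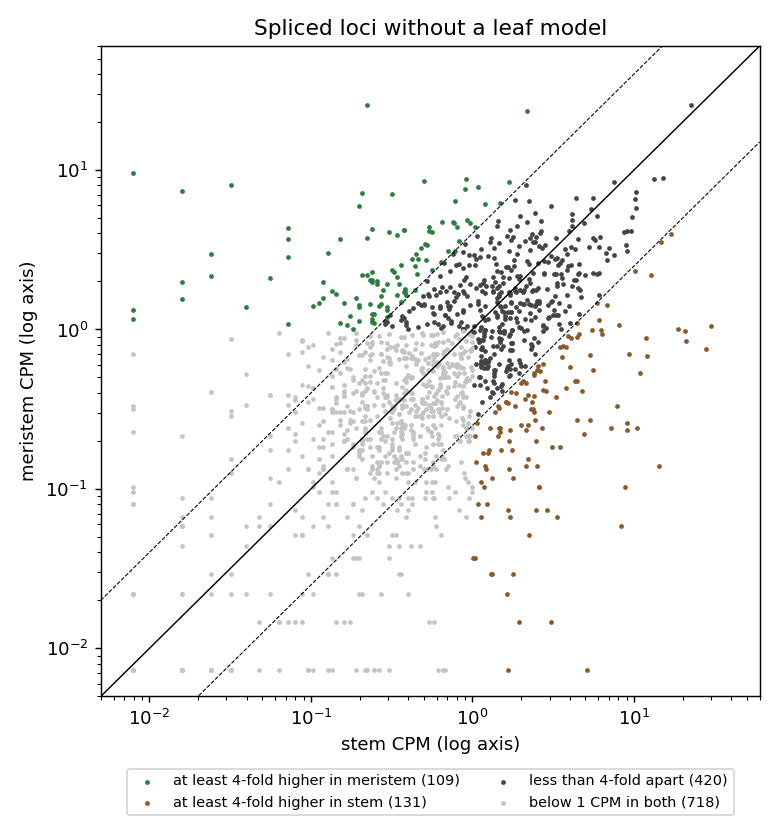
Each point is 1 of the 1378 members, with its level in meristem (vertical) and stem (horizontal) in CPM on log axes. A count of 0 is drawn at the level of 1 fragment. The solid line marks equal levels and the dashed lines a 4-fold difference, with 109 members called higher in meristem and 131 called higher in stem.

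The largest ratios rested on very few fragments in the lower tissue, and the model was short there. On contig 005400F (207603–264145, plus strand), meristem had 1303 fragments on a model of 20 exons and 2981 bases (STRG.50616), and stem had 1 fragment on a model of 2 exons and 219 bases. Meristem was thus 1203-fold higher (216 to 47554), and 88.4-fold higher per base of model. The 20 exon blocks were the most of any member in meristem, and 3 leaf models lie in its introns on the same strand, with 200, 45 and 1 fragments. Of its exon blocks 1 to 10 and 11 to 20, taken as pairs in order, 9 of 10 pairs have the same length, at distances of 46564 to 46617 bases, and the stem model lies within the later series. This was noticed after the values were seen, and reads that fit both series have no certain place, so these counts are uncertain. On contig 006872F (148247–148847, minus strand), meristem had 998 fragments (STRG.54862) and stem had 2, a ratio of 461 (127 to 3810). This member sits between leaf models on its own strand, of 10 exons and 2819 fragments at a distance of 100 bases and of 3 exons and 492 fragments at 386 bases.

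The locus on contig 004599F (37474–39676, plus strand) had 7 exons and 1102 fragments in meristem and 4 fragments in stem, a 254-fold difference (99.1 to 935). No leaf model was listed on that strand of the contig. The fourth, on contig 000069F (735990–737697, plus strand), showed 180 meristem fragments and 1 stem fragment (ratio 166, interval 29.5 to 6600). Contig 000069F held 6 members, the most of any contig. In all 4 the stem model had fewer exons than the meristem model, and 1 intron was shared in position.

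In the other direction, the locus on contig 001004F (666456–667980, minus strand) had 1 fragment in meristem on 290 bases and 645 in stem on 1289 bases (STRG.18542). The ratio of stem over meristem was 699 (125 to 27635), and 157 per base of model. No intron had the same position there, and the whole meristem model lay within the first exon block of the stem model. The locus on contig 001963F (593563–594504, plus strand) had 1 fragment in meristem and 207 in stem (STRG.28788), with a stem over meristem ratio of 224 (39.8 to 8898). The locus on 002866F (277100–279091, plus strand) showed 2 meristem fragments and 385 stem fragments, a stem over meristem ratio of 208 (57.3 to 1728). At the locus on 006480F (47447–51490, plus strand), meristem had 8 fragments on 3 exons and stem 1046 on 8 exons, 142-fold fewer in meristem (71.6 to 329) and 42.7-fold fewer per base.

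**Figure D3:**
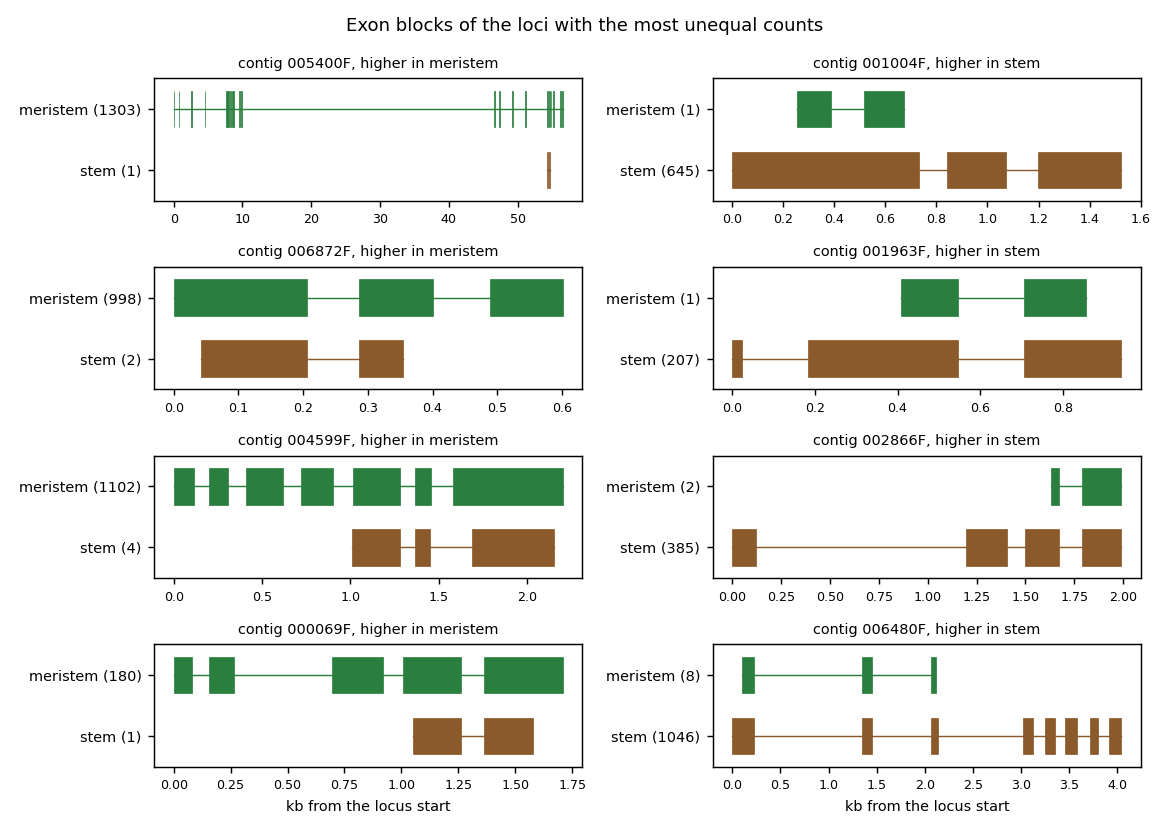
Exon blocks (boxes) and introns (lines) of the 4 members with the largest meristem over stem ratio (left) and the 4 with the smallest (right), with the meristem model above the stem model and the fragment count in parentheses. The horizontal axis is the distance in kb from the locus start in the direction of transcription, with its own scale in each panel. The tissue with fewer fragments has the shorter model in every panel.

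A much shorter model in the lower tissue was common among the called members. The stem model was at most 50% as long as the meristem model at 41 of the 109 called higher in meristem (37.6%), and the meristem model at most 50% as long as the stem model at 45 of the 131 called higher in stem (34.4%). Median exonic length was 849 bases in meristem and 456 in stem for the 109, and 432 bases in meristem and 769 in stem for the 131. When fragments were divided by model length, 57 of the 109 and 97 of the 131 kept a fold of at least 4, and 0 of either set changed direction. In the lower tissue, 8 of the 109 and 5 of the 131 had 1 to 3 fragments, and 0 had none.

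Members had few exons and short models. Of the 1378, 552 (40.1%) had 2 exon blocks in both tissues and 511 (37.1%) at least 3 in both. By the smaller of both tissues, 867 had 2 exon blocks, 319 had 3, 123 had 4 and 41 had 5. At least 10 in both tissues was reached by 2 members (0.145%), against 3133 of the 22240 loci spliced in all tissues (14.1%). Median exonic length was 452.5 bases in meristem and 440.5 in stem, against 1415 and 1339 at loci spliced in all tissues. The shortest models are 200 bases long in all 3 files.

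The gap to the loci spliced in all tissues was smaller at a matched mean CPM. At 1 to 2 CPM, 271 members had a median of 3 exon blocks in each tissue, as had 1179 loci spliced in all tissues. Members of that bin had 2 exon blocks in both tissues in 28.0% of cases, the other loci in 26.8%, and their median lengths in meristem were 621 and 727 bases. Below 0.25 CPM the shares with 2 exon blocks were 61.4% of 259 members and 40.6% of 256 other loci, and the median lengths in meristem were 293 and 362 bases. From 2 to 5 CPM the median meristem lengths were 836 bases for 193 members and 1005 for 3108 other loci. From 5 to 10 CPM, 28 members had 868 bases in meristem and 1245 in stem, against 1299.5 and 1216 for 3432 other loci, and 10.7% of these members had 2 exon blocks in both tissues, against 15.0%. Members were thus shorter in meristem in each of these 4 bins, by less than over all levels, and in stem not in the last.

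Most members shared an intron between the tissues, and fewer shared them all. At least 1 intron had the same start and end in both tissues at 1229 (89.2%), and every intron did at 615 (44.6%). At loci spliced in all tissues these shares were 97.2% and 45.8%, taken between meristem and stem as well. The likeness of the second pair of shares did not hold at a matched mean CPM. Below 0.25 CPM every intron agreed at 65.3% of members and 55.5% of loci spliced in all tissues. From 1 to 2 CPM the shares were 36.9% and 39.4%. From 5 to 10 CPM they were 17.9% of 28 members and 37.8% of 3432 other loci. The exon number was the same in both tissues at 792 members, higher in meristem at 262 and higher in stem at 324. At 149 members (10.8%) no intron was shared in position, against 2.77% of loci spliced in all tissues. An intron over 1000 bases in the same position in both tissues was found at 179 members (13.0%) and one over 5000 bases at 26 (1.89%), against 25.1% and 4.53%. These contrasts are not matched by level or exon number, whose median was 2 at members and 5 at the other loci. Where only a stem or only a meristem model was lacking, 8.43% and 9.67% shared no intron between the tissues with a model. An intron over 1000 bases was shared at 13.5% and 17.8%.

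The members with the most exons in both tissues were at quite different levels. On contig 000903F (823876–832684, plus strand), 10 exons in meristem and 11 in stem came with 190 and 498 fragments. A 9-exon locus on 000245F (1249094–1256991, plus strand) showed 420 meristem fragments and 1139 stem fragments, 2.94-fold fewer in meristem on the CPM scale (2.62 to 3.29). The other pair had fewer fragments. On 004638F (316327–324563, plus strand), models of 10 exons in meristem and 12 in stem, over 1101 and 1126 bases, collected 8 and 5 fragments. On 004563F (280148–288988, plus strand), 9 exons in meristem collected 3 fragments and 14 in stem collected 50.

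Fewer than 10 fragments were counted at 122 members in meristem and at 95 in stem, 47 of them in both tissues, although each had a spliced model there. At 8 members in meristem and 6 in stem the count was 0, so the counts do not show the reads behind those models. Why they were not counted was not tested. The 122 and the 95 were 8.85% of the members in meristem and 6.89% in stem, against 0.553% and 0.836% of the loci spliced in all tissues. That contrast is not matched by level. Below 0.25 CPM lay 259 of the 1378 members and 256 of the 22240 loci spliced in all tissues. In number, 123 of those 22240 had fewer than 10 fragments in meristem and 186 in stem. A model of the same tissue on the other strand overlapped the exons of 3 of these 122 members and 1 of these 95.

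The longest intron at the same position in both tissues was 58059 bases, at a 2-exon locus on contig 000817F (419255–477824, plus strand) with 29 fragments in meristem and 78 in stem. On the same strand, 2-exon leaf models with 222 and 136 fragments span the whole stretch, one with 66 fragments overlaps its end and reaches beyond it, and one with 2 fragments lies in its intron. Second was an intron of 26640 bases on 001592F (342672–370153, minus strand), with 29 fragments in meristem and 59 in stem and 3 of 4 introns in common. So both lay at low-count loci.

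A lack of a leaf model was common at low levels and rare at high ones. Among 24490 loci spliced in meristem and stem, 5.63% had no leaf model. The share was 48.1% below 0.25 CPM (mean of meristem and stem, 95% exact binomial interval 43.8 to 52.5), 43.3% from 0.25 to 0.5 and 30.2% from 0.5 to 1. It was 16.8% at 1 to 2 CPM (15.0 to 18.7), 5.42% at 2 to 5, 0.772% at 5 to 10 and 0.214% at 10 to 20. Above 20 CPM it was 1 of 9175 loci, the locus on contig 000076F that lies in the intron of a leaf model.

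The same shares were lower for the other tissues at low levels. Of loci spliced in meristem and leaf, 3.02% had no stem model, and of loci spliced in stem and leaf, 1.17% had no meristem model. At 1 to 2 CPM, beside the 16.8% for leaf, the shares were 8.29% (7.04 to 9.70) for stem and 2.16% (1.52 to 2.98) for meristem. From 5 to 10 CPM the order of leaf and stem turned, at 0.772% without a leaf model (0.514 to 1.11) and 1.32% without a stem model (0.980 to 1.74), with overlapping intervals. The order was the same from 10 to 20 CPM, at 0.214% and 0.386%. With TMM scaling factors, a setting chosen after the data were seen, the shares from 5 to 10 were 0.609% without a leaf model and 1.43% without a stem model. When loci were binned by fragments per kb of model instead, likewise chosen after the data were seen, 1.45% lacked a leaf model and 1.35% a stem model in the bin from 5 to 10, so that turn depends on the scale. In the bin from 1 to 2 of that scale, 22.4% lacked a leaf model, 9.37% a stem model and 4.08% a meristem model. The intervals take loci as independent, and no interval covers variation between plants.

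**Figure D4:**
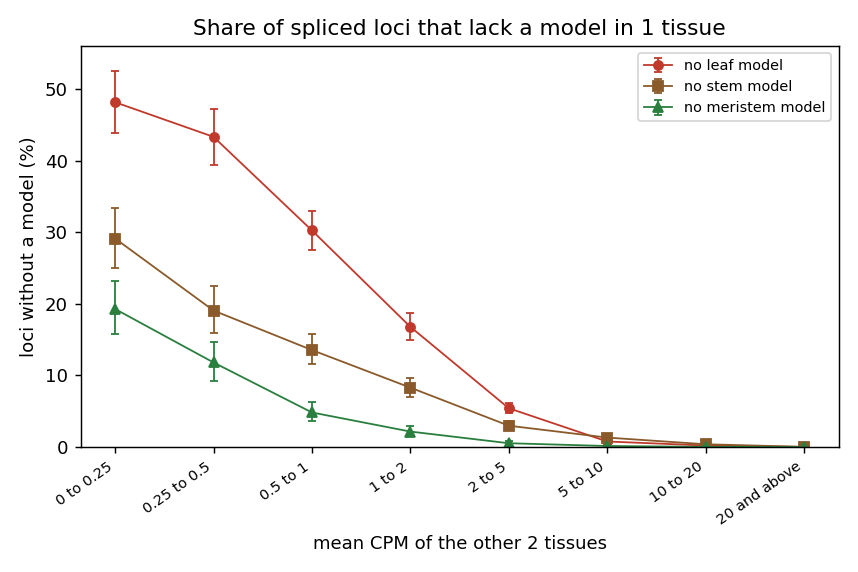
Share of spliced loci without a model in leaf (red), stem (brown) or meristem (green), in percent, by the mean CPM of the other tissues. Error bars are exact binomial 95% intervals over loci. At 1 to 2 CPM the shares are 16.8%, 8.29% and 2.16%, and all are below 2% from 5 CPM upward.

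Against the 1378 members, which lack only a leaf model, 712 spliced loci lacked only a stem model and 269 lacked only a meristem model. On the CPM scale the loci without a stem model were higher in meristem, with a median of 0.905 there and 0.412 in leaf. Those without a meristem model were lower, at 0.407 in stem and 0.270 in leaf. At least 10 CPM in either tissue was reached by 22 of the 1378, 50 of the 712 and 3 of the 269. The median log2 ratio was -0.30 for meristem over stem where leaf lacked a model. It was 1.06 for meristem over leaf where stem lacked one, and 0.66 for stem over leaf where meristem lacked one. With scaling factors, which raise leaf levels, these 3 medians were -0.35, 0.45 and 0.10, so the last 2 depend on the scaling.

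By exon number and introns the 3 classes without a model overlapped widely. With 2 exon blocks in both tissues there were 40.1% of the loci without a leaf model, 38.2% of those without a stem model and 49.8% of those without a meristem model. Every intron agreed in position between the tissues at 44.6%, 45.2% and 50.2%. At least 5 exon blocks in both tissues were found at 5.01%, 8.85% and 2.97%. Median exonic length was 452.5 bases in meristem and 440.5 in stem without a leaf model, 570.5 in meristem and 417.5 in leaf without a stem model, and 380 in stem and 329 in leaf without a meristem model.

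**Figure D5:**
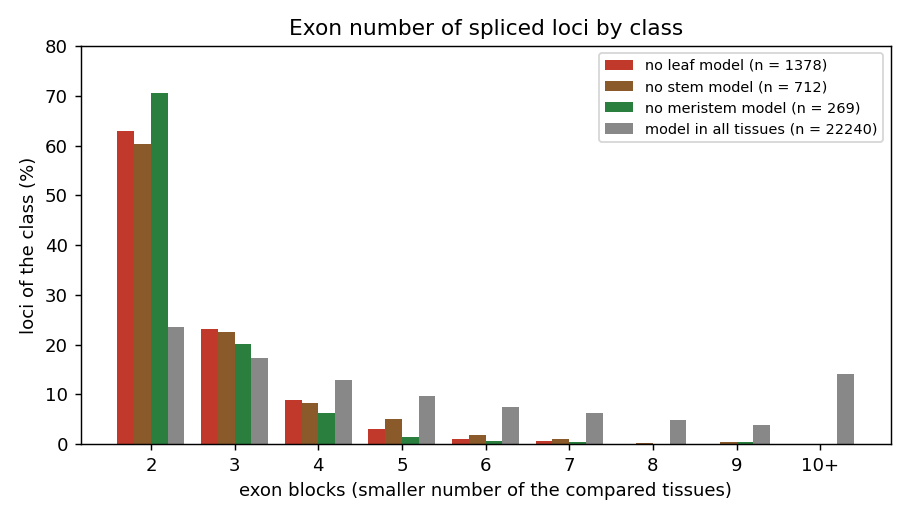
Share of the loci of each class, in percent, by the number of exon blocks in the tissue with fewer, out of the tissues that have a model (meristem and stem for loci with all models). Every class is highest at 2 exon blocks, which hold 62.9% of the loci without a leaf model and 23.5% of those with all models, and 14.1% of those with all models have 10 or more.

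Leaf models were not far from many members. On the same strand, 66 members (4.79%) had a leaf model whose span overlapped theirs and that shared no exonic base with them. Of these, 30 lay whole in an intron of a leaf model and 35 held a leaf model in an intron of their own. Another 9 cases were interleaved otherwise, and a member could fall in more than 1 of these sets. A further 341 (24.7%) had a leaf model within 1000 bases, 43 of them on both sides. At 297 of these 341 the neighbouring leaf model belonged to a locus that also had meristem and stem models. That no meristem or stem model joined this neighbour to the member follows from the rule, as a joined locus would have a leaf model. Nothing is read from that separation. The remaining 971 members (70.5%) had no leaf model within 1000 bases on their strand. Their median levels were 0.559 CPM in meristem and 0.598 in stem, and those with a leaf model within 1000 bases had 0.581 and 0.574. No leaf model at all was listed on the contig of 62 members. Loci that lack only a stem model had a stem model inside their span in 4.78% and outside it within 1000 bases in 23.0%. Those that lack only a meristem model had a meristem model so placed in 8.18% and 32.3%. Nearness to a model of the missing tissue was thus not particular to the members.

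On the other strand, a leaf model overlapped the exons of 36 members (2.61%), against 4.34% of the loci spliced in all tissues. Below 0.5 CPM and from 5 to 10 CPM the order was opposite. The shares were 3.47% of 259 members and 0.391% of 256 other loci below 0.25 CPM. From 0.25 to 0.5 CPM they were 3.27% of 275 and 0.955% of 314, and from 5 to 10 CPM 7.14% of 28 and 4.52% of 3432. Such shares of small bins rest on few loci. At 16 of the 36 members the leaf model was spliced. These leaf models held a median of 105.5 leaf fragments. Any model of any tissue overlapped 67 members on the other strand (4.86%), against 9.81% of the loci spliced in all tissues. It is not stated whether the kit kept strand, and without strand, reads of a gene and its antisense partner cannot be told apart. By level the order was mixed. In the bin from 1 to 2 CPM the shares with any such overlap were 4.80% for members and 7.29% for loci spliced in all tissues, while below 0.25 CPM they were 3.86% and 3.13%, and from 5 to 10 CPM 14.3% and 9.99%.

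The members were spread over 1081 of the 6785 contigs with a locus, with 861 contigs holding 1 member and 17 holding at least 4. They were on the plus strand at 674 loci and on the minus strand at 704. Members made up 2.03% of all loci, and of the loci next to a member 5.90% were members too (146 of 2473). Of those neighbours 49.0% had no leaf model (1211 of 2473), against 39.2% of the neighbours of any locus. The 1211 include the 146 neighbours that are members, which lack a leaf model by the rule. The 49.0% thus partly repeats the 5.90%. There were 67 runs of adjacent members, 62 of them pairs, and 140 members stood in such a run.

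The longest run was 4 members on contig 003352F, from 143575 to 153936, all on the minus strand, where the last 2 by position lie within the span of the second. In order of their starts they had 9, 7, 17 and 20 fragments in meristem and 215, 282, 46 and 54 in stem, and each was lower in meristem. The nearest leaf models on that strand were at 58076 bases or more. A run of 3 on contig 000746F (minus strand) began at 461497, 462679 and 484469, with 1146, 389 and 241 fragments in meristem and 940, 9 and 246 in stem. Its second member was 39.9-fold higher in meristem (20.8 to 87.9), while the first was 1.13-fold higher in meristem (1.03 to 1.23) and the last had a ratio of 0.905 (0.754 to 1.08). The second and the third had nearly equal structures of 3 exons, over 287 and 277 bases in meristem and 287 and 287 in stem, and their longest introns were 716 and 715 bases. Reads shared by near copies could be split between such loci or left out of the counts, so the values of this pair are uncertain. There were 4 runs of 3, of which those first in contig order are described. The other of these, on 000855F (minus strand) and starting at 256590, 258500 and 259469, had 1, 52 and 1 fragments in meristem and 24, 20 and 28 in stem.

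Just outside the rule were 298 loci without a leaf model that were spliced in meristem and unspliced in stem, and 388 with the opposite pattern. Their median CPM was 0.530 in meristem and 0.227 in stem for the 298, and 0.265 and 0.622 for the 388. Just inside were the 552 members with 2 exon blocks in both tissues, at 0.375 CPM in meristem and 0.411 in stem. Loci without a leaf model and unspliced in both tissues numbered 4419, at 0.243 and 0.271 CPM. On the leaf side, 6 loci spliced in meristem and stem were kept out by a leaf model sharing at most 50 exonic bases with any other model, and their median CPM was 0.879 and 0.797.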

How the data were processed

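The authors' deposited values are raw counts of fragments per gene model, which per the file headers came from featureCounts 1.6.3 on paired reads with strand setting 1, against a model file of each tissue and a Cascade assembly that the header names call masked and deduplicated. HISAT2 2.1.0 and StringTie 1.3.3b are named in the submitters' processing notes. Other settings and the build's name are not given in the sources used here.

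Overlapping or abutting exons were merged within a model, models were joined into loci, and the fragments of a tissue were added up at each locus in Python 3.11.15 (pandas 2.3.3, numpy 2.4.6, scipy 1.17.1, matplotlib 3.10.9). Exon number is that of the model with the most blocks, and introns and lengths come from the union of a tissue's models. CPM uses the file total. For a ratio, 0 fragments were set to 3 counts, and no ratio was formed where both tissues had at most 3. Counts of 3 correspond to 0.0221 CPM in meristem, 0.0239 in stem and 0.0184 in leaf. Fold intervals are exact binomial (Clopper-Pearson, 95%). edgeR 4.0.16 in R 4.3.3 gave TMM and RLE scaling factors for alternatives only, from 32184 of the 33811 loci modelled in every tissue. No test across loci was possible with 1 column per tissue.

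Named are the 10 members with the highest mean CPM, the 4 largest and 4 smallest ratios at 1 CPM or more, the 4 with the most exons, the 2 longest shared introns and the 3 longest runs, with ties among runs broken by contig order. The members, lists and limits were chosen with earlier results of these data known. The steps were tested on simulated data. Of the gene numbers, 0 matched the RefSeq table at hand.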

Additional observations from a re-analysis of the deposited data

How the results depend on the processing

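No paired analysis was possible because each tissue has 1 column without a replicate number, and leaving out single samples was not run. Of 94 comparisons with an alternative, 57 stayed within the limit set for them (1.5-fold for counts of loci, the 95% interval of the median for medians), and no named locus above 4-fold changed direction. The 94 include median levels per kb set against levels in CPM, a change of unit, and all of those fell outside the limit. With at least 3 exon blocks the loci without a leaf, stem or meristem model numbered 511, 282 and 79, and 160 without a meristem model had none within 1000 bases. Keeping members with every intron at the same position, chosen after the data were seen, left 615, with 30 called higher in meristem and 41 higher in stem. Of these 615, 390 were below 1 CPM in both tissues and could not be called. The share over all loci was not taken with this filter, so nothing is read from the 30 and 41. For these calls, no minimum level gave 226 higher in stem (16.6%, against 10.5% of all loci), and 10 CPM gave 2 and 14. A fold of 2 gave 187 higher in meristem (28.3%, against 27.1% of all loci) and 229 higher in stem (34.7%, against 23.3%). Counts per base gave 61 higher in meristem (9.24%, against 11.4%). The median log2 ratio was -2.33 at 10 CPM, where 22 loci enter.

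Median levels of the members were 0.480 CPM in meristem and 0.531 in stem with TMM factors, 0.475 and 0.532 with RLE factors, and 1.15 and 1.28 per kb. Without a stem model they were 0.777 in meristem and 0.540 in leaf with TMM, 0.768 and 0.545 with RLE, and 1.56 and 1.01 per kb. Without a meristem model they were 0.355 in leaf with TMM and 0.358 with RLE, and 0.999 in stem and 0.789 in leaf per kb. With 1 model per tissue, median lengths were 374.5 bases in meristem and 373 in stem for members, and 482 in meristem (with 2 exons) and 348.5 in leaf without a stem model. With at least 10 fragments in both tissues, members had 485 bases in meristem and 465 in stem. TMM or RLE scaling divides all levels of a tissue by the same factor (TMM 1.16 in meristem, 1.13 in stem and 0.762 in leaf). Levels per kb are in another unit. Why lengths and exon number shifted was not tested.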
